A study of Homo sapiens with 18 samples.

Results

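The genes described here are 9 members of the plasminogen activation system and of the serpin family, chosen by symbol from a table of 40266 gene symbols: *PLAU*, *PLAUR*, *PLAT*, *SERPINE2*, *SERPINB2*, *SERPINB3*, *SERPINB5*, *SERPINB7* and *SERPINH1*. Their levels were read in 18 bulk RNA-seq libraries of 2 human pancreatic ductal adenocarcinoma (PDAC) cell lines. Panc1 derives from a primary tumor and serves as a model with mesenchymal-like features, and Panc89 derives from a lymph node metastasis and serves as an epithelial model. Each line was profiled as parental cells, as Holoclone cells (compact colonies grown from single cells, used as cancer stem cell enriched) and as Paraclone cells (loose colonies grown from single cells, used as the counterpart without stem cell enrichment), with 3 libraries in each of the 6 groups. No treatment is named in the labels, and all cells were grown in the same serum-containing medium. Holoclone and Paraclone cells of a line are each 1 expanded clone and the 3 libraries of a group are 3 passages, so every p-value below measures the spread between passages of a culture and not between independent clones.

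The plasminogen activators are serine proteases that turn plasminogen into plasmin, a protease that dissolves fibrin and degrades extracellular matrix. *PLAU* encodes the urokinase type, which acts mostly at the cell surface on its receptor *PLAUR*, and *PLAT* encodes the tissue type, best known from clot dissolution. Serpins are proteins that mostly inhibit proteases by trapping them in a covalent complex. Among the members, *SERPINE2* (protease nexin) and *SERPINB2* inhibit plasminogen activators, and *SERPINB3* (squamous cell carcinoma antigen) inhibits cysteine cathepsins. *SERPINB5* (maspin) and *SERPINB7* (megsin) are further serpins of the SERPINB family. *SERPINH1* is no inhibitor but the collagen chaperone of the endoplasmic reticulum.

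Levels are given as TPM, a transcript abundance corrected for length and scaled to a common total in each library, as mean ± SD over 3 libraries. Differences are on the log2(TPM + 1) scale with their standard error (SE), which compresses the differences of genes read at about 1 TPM or less, and were called at an adjusted p under 0.05 in limma. The adjustment ran over the 16093 genes that reached 1 TPM in 3 or more libraries. All 9 members passed this filter, but 5 of them (*PLAT*, *SERPINB2*, *SERPINB3*, *SERPINB5* and *SERPINB7*) passed only through Panc89 libraries and therefore had to differ between the lines. *VIM* and *CDH1* took the sides of the mesenchymal-like and the epithelial model. *VIM* reached 2020 to 5040 TPM in Panc1 and at most 0.456 TPM in Panc89 libraries. *CDH1* reached at most 3.51 TPM in Panc1 and 73.3 to 107 TPM in Panc89 libraries. *ZEB1*, *KRT7* and *EPCAM* also took these sides, without overlap of the lines. Mesenchymal *FN1* went the other way, at 0.0445 to 0.697 TPM in Panc1 and 0.991 to 23.8 TPM in Panc89 libraries. The lines overlapped for mesenchymal *CDH2* and epithelial *KRT8*, *KRT18* and *KRT19*. Of 12 markers of acinar, immune, endothelial and stromal cells, 8 had a mean under 1 TPM in every group. The other 4 were *CD14* and *CDH5* (at most 4.86 and 5.07 TPM in any library), *COL1A1* (at most 26.1 TPM) and *PECAM1*, which was at most 64.7 TPM in Panc89 and at most 0.126 TPM in Panc1 libraries, with Panc89 means of 60.1 TPM in parental, 0.856 TPM in Holoclone and 4.54 TPM in Paraclone cells. Their part in the results was not tested. In bulk RNA, fewer expressing cells and less RNA per cell cannot be told apart.

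**Figure D1:**
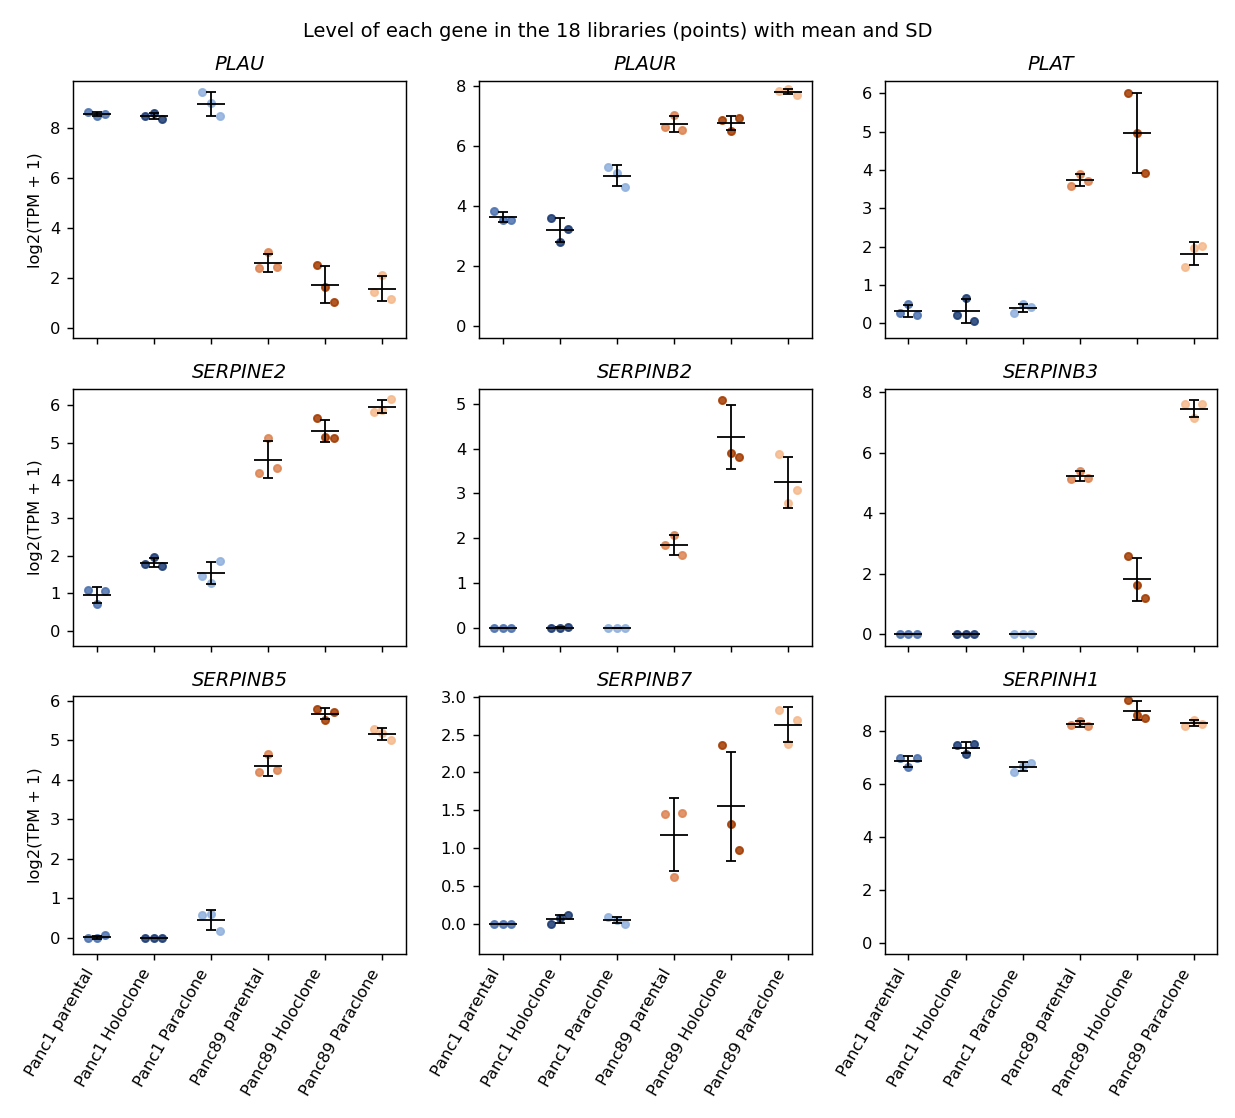
Level of each of the 9 genes on the log2(TPM + 1) scale (y axis) in the 6 groups (x axis); points are the 3 libraries of a group, horizontal marks their mean and bars their SD. *PLAU* was high in the 9 Panc1 and low in the 9 Panc89 libraries, and the other 8 genes were higher in Panc89.

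The urokinase gene and its receptor lay on opposite sides of the comparison between the lines. *PLAU* was read at 394, 350 and 369 TPM in parental Panc1 and at 4.24, 7.15 and 4.41 TPM in parental Panc89 cells. Its means of 371 ± 21.9 and 5.27 ± 1.64 TPM differed 70.4-fold, and the difference on the log2 scale was -5.92 (SE 0.326, adjusted p = 2.48e-10). *PLAUR* was read at 13.2, 10.7 and 10.6 TPM in parental Panc1 and at 98.7, 129 and 91.8 TPM in parental Panc89 cells. No library of one line overlapped the other for either gene. The receptor was 9.25-fold higher in the mean TPM of Panc89 (log2 difference 3.09, SE 0.207, adjusted p = 2.55e-09). Among all genes tested, 66% passed the threshold between the parental lines, so passing it is common in this comparison, and all 9 members did, 8 of them higher and only *PLAU* lower in Panc89. For the 5 members that passed the filter only through Panc89 libraries, the filter itself favored that side.

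As a ratio of TPM within a library, parental Panc1 held 32.5 ± 2.61 *PLAU* transcripts for each *PLAUR* transcript, and parental Panc89 held 20.7 ± 2.66 *PLAUR* transcripts for each *PLAU* transcript. The excess of *PLAU* was 45.2 ± 17.7 in the Holoclone and 15.9 ± 1.66 in the Paraclone cells of Panc1. The excess of *PLAUR* was 58.8 ± 44.7 in the Holoclone and 122 ± 48.4 in the Paraclone cells of Panc89, and *PLAU* was close to 1 TPM in some of these libraries. The reversal between the lines was therefore present in parental cells and in both clones, and no test was run on the ratio itself.

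**Figure D2:**
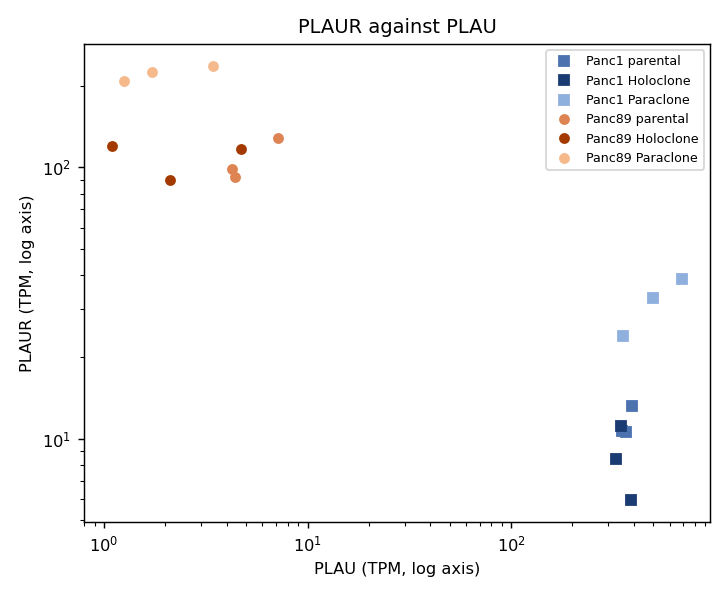
TPM of *PLAUR* (y axis) against TPM of *PLAU* (x axis) in each of the 18 libraries, on log axes; squares are Panc1 and circles Panc89 libraries, with 3 points for each group. All Panc89 libraries lie at or below 7.15 TPM of *PLAU*, and all Panc1 libraries lie at or above 329.0 TPM.

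Windows just before the starts of both genes are shown because they take opposite sides between the lines. They come from RefSeq (GRCh38.p14) and were searched on both strands over 300 bases, 250 before the start and 50 after it, for TGANTCA, the core that AP-1 factors bind, and GGGCGG, the core that SP1 factors bind. *PLAU* lies at chr10:73909177-73917496 on the plus strand and *PLAUR* at chr19:43646095-43670547 on the minus strand (GENCODE 44, GRCh38). *PLAU* had 2 starts in the table and *PLAUR* 1. Below are the 250 bases before the start, chr10:73910882-73911131 for the second start of *PLAU* and chr19:43670170-43670419 for *PLAUR*, with the matches in capitals. This *PLAU* window held 3 GGGCGG matches, at positions -66, -51 and -40 from the start, and no TGANTCA. The window of the other *PLAU* start, chr10:73910360-73910609, is not shown and held neither motif, and the *PLAUR* window held 1 TGANTCA match at position -186 and no GGGCGG.
PLAU: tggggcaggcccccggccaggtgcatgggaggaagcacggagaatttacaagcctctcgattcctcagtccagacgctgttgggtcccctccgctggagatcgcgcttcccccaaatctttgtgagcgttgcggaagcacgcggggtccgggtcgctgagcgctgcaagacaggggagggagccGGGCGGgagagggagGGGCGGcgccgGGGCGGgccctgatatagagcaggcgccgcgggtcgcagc
PLAUR: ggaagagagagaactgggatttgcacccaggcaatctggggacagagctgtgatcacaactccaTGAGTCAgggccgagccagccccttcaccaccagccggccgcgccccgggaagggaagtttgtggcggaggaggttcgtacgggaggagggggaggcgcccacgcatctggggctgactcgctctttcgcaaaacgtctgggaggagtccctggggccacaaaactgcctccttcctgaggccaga
Of all 34796 windows of this length, 44.9% held GGGCGG and 7.73% held TGANTCA on either strand. A match describes the sequence and is not evidence of binding.

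*PLAUR* was lower in Holoclone than in Paraclone cells of both lines. In Panc1 it was read at 11.1, 5.93 and 8.42 TPM in Holoclone and at 38.8, 33 and 24.0 TPM in Paraclone cells. In Panc89 it was read at 116, 89.5 and 120 TPM in Holoclone and at 225, 237 and 208 TPM in Paraclone cells. In neither line did the libraries of the clones overlap. The mean TPM was 3.76-fold higher in Paraclone cells of Panc1 (log2 difference of Holoclone against Paraclone cells -1.81, SE 0.207, adjusted p = 6.72e-06) and 2.05-fold higher in those of Panc89 (-1.04, SE 0.207, adjusted p = 0.00102). Both calls held under every alternative tried. The difference between the lines in this change was 0.76 (SE 0.292, adjusted p = 0.0539), which did not pass the threshold with the TPM as deposited. It did pass with a pseudocount of 0.1, after either scaling, with either replicate block and without Panc1 Holoclone replicate 1, Panc1 Paraclone replicate 3 or Panc89 Holoclone replicate 2 (adjusted p = 0.0179 to 0.0471).

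Against parental cells, the receptor rose in Paraclone cells, by 1.38 in Panc1 (adjusted p = 0.000154) and by 1.08 in Panc89 (adjusted p = 0.00156) on the log2 scale. Holoclone cells gave -0.43 (adjusted p = 0.228) and 0.04 (adjusted p = 0.944) in the same lines, and their libraries overlapped those of the parental cells. Both contrasts of a line share its parental libraries. *PLAUR* was thus ordered Panc89 Paraclone, Panc89 Holoclone, Panc89 parental, Panc1 Paraclone, Panc1 parental and Panc1 Holoclone cells from high to low, and the neighbors that overlapped were Holoclone and parental cells within each line.

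The ligand passed the threshold between the clones in neither line. *PLAU* in Panc1 was read at 348, 386 and 329 TPM in Holoclone and at 691, 500 and 354 TPM in Paraclone cells, and the library of Paraclone replicate 3 lay within the Holoclone range. The log2 difference was -0.49 (SE 0.326, adjusted p = 0.268). In Panc89 *PLAU* was read at 4.72, 2.11 and 1.10 TPM in Holoclone and at 1.72, 3.41 and 1.26 TPM in Paraclone cells, again overlapping (0.15, SE 0.326, adjusted p = 0.763). Panc89 Paraclone cells fell below parental cells by 1.03 on the log2 scale (SE 0.326, adjusted p = 0.0363), a call that was lost when any of 5 of the 6 libraries was left out (log2 differences -1.14 to -0.825, adjusted p = 0.0573 to 0.154), all but Paraclone replicate 2, and also without a filter on low values (adjusted p = 0.0709) and with the compared groups fitted alone (adjusted p = 0.089). Panc89 Holoclone cells gave -0.88 against parental cells (SE 0.326, adjusted p = 0.0623), in overlapping libraries. This difference passed the threshold without Holoclone replicate 1 (-1.26, adjusted p = 0.00569), after either scaling (-0.97 for both, adjusted p = 0.0299 and 0.0292) and with the replicate block over both lines (adjusted p = 0.0368).

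*PLAT* had the largest excess of Holoclone over Paraclone cells among the members in Panc89. All 9 Panc1 libraries read between 0.0299 and 0.574 TPM, and the groups overlapped. Parental Panc89 cells read 11.0, 13.95 and 12.2 TPM, Holoclone cells 63.8, 30.2 and 14.3 TPM, and Paraclone cells 1.77, 2.92 and 3.03 TPM. The 3 Panc89 groups did not overlap, although Holoclone replicate 3 stood just above the parental range and replicate 1 far above it. Holoclone exceeded Paraclone cells 14.1-fold in mean TPM (log2 difference 3.16, SE 0.355, adjusted p = 5.84e-06), and without Holoclone replicate 1 the difference was 2.63 (SE 0.267, adjusted p = 3.46e-06). In Panc1 the same contrast gave -0.09 (adjusted p = 0.897), and the change differed between the lines by 3.25 (SE 0.502, adjusted p = 0.000136). Relative to parental Panc89 cells, *PLAT* fell by 1.92 in Paraclone cells (adjusted p = 0.00119) and rose by 1.24 in Holoclone cells (adjusted p = 0.0184). The rise lost its call without Holoclone replicate 1 (0.713, adjusted p = 0.0624), parental replicate 1 (1.16, adjusted p = 0.0633) or parental replicate 3 (1.23, adjusted p = 0.0516), with a pseudocount of 0.1 (1.29, adjusted p = 0.107) and with the compared groups fitted alone (adjusted p = 0.153).

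Across the 9 members, 3 passed the threshold between Panc1 Holoclone and Paraclone cells, where 37.3% of all genes did, and 8 passed it between Panc89 Holoclone and Paraclone cells, where 35.7% of all genes did. In Panc1 the 3 were *SERPINH1*, higher, and *PLAUR* and *SERPINB5*, lower in Holoclone cells. In Panc89, *PLAT*, *SERPINB2*, *SERPINB5* and *SERPINH1* were higher and *PLAUR*, *SERPINB3*, *SERPINB7* and *SERPINE2* lower in Holoclone cells, and *PLAU* did not pass. Of the members that did not pass in Panc1, *SERPINB2*, *SERPINB3* and *SERPINB7* were under 0.1 TPM in every Panc1 library. The change between the clones differed between the lines for 5 members, *PLAT* and *SERPINB5* toward Holoclone cells of Panc89 and *SERPINB3*, *SERPINB7* and *SERPINE2* away from them, where 35.1% of all genes passed. Only *PLAUR*, *PLAT* and *SERPINB3* kept their Panc89 call under every alternative. In Panc89 Holoclone cells, replicate 1 was the highest library for 8 of the 9 members, so values without it are given beside the calls that they change. Replicate 2 of the parental Panc89 cells was likewise the highest library of its group for 8 of the 9 members.

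**Figure D3:**
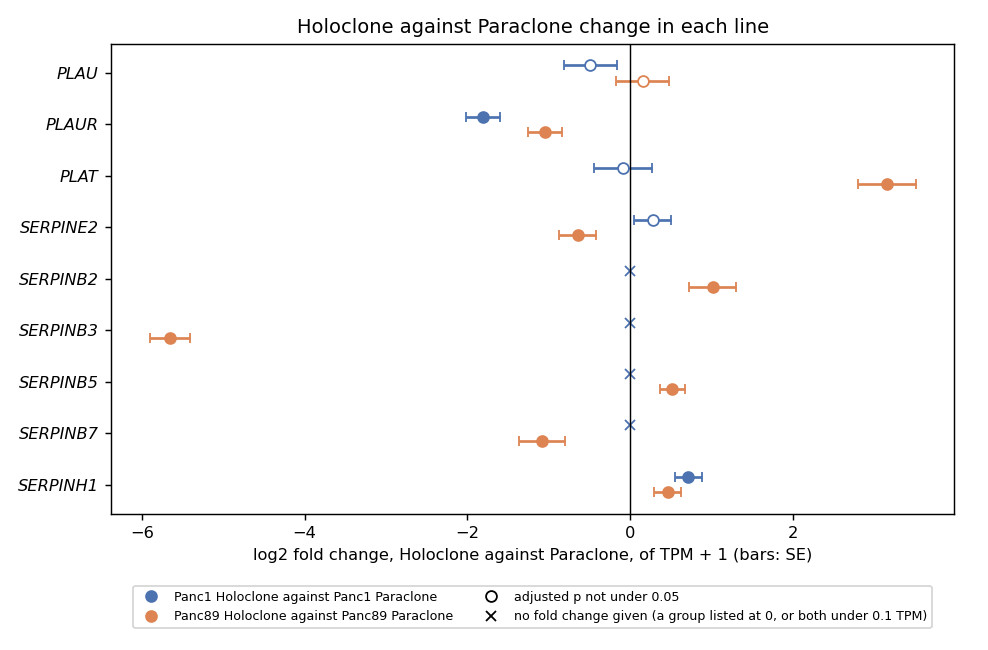
Log2 difference of TPM + 1 between Holoclone and Paraclone cells (x axis, bars are SE) for each gene (y axis) in Panc1 (blue) and Panc89 (orange); filled points passed an adjusted p under 0.05, open points did not, and crosses at 0 mark genes for which no fold change is given. *SERPINB5* in Panc1, listed at 0 in Holoclone cells, is drawn as a cross although it passed the threshold (-0.453, SE 0.151, adjusted p = 0.027 in limma). *PLAUR* lies left of 0 in both lines, and *PLAT* (3.16) and *SERPINB3* (-5.66) lie farthest from 0 in Panc89.

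Among the inhibitors of plasminogen activators, *SERPINE2* was low in Panc1 and high in Panc89. Parental cells read 1.13, 0.631 and 1.10 TPM in Panc1 and 17.3, 33.7 and 19.1 TPM in Panc89, a 24.6-fold difference of the means (log2 difference 3.60, SE 0.228, adjusted p = 1.41e-09). In Panc89 the gene read 48.9, 34.5 and 34.1 TPM in Holoclone and 55.5, 57.7 and 70.2 TPM in Paraclone cells. Both clones lay above every parental library, although Holoclone replicates 2 and 3 lay within 1 TPM of parental replicate 2. Paraclone cells rose above parental cells by 1.40 (SE 0.228, adjusted p = 0.000416), a call kept under every alternative, and Holoclone cells by 0.76 (SE 0.228, adjusted p = 0.0239). The latter was lost without parental replicate 1 (0.581, adjusted p = 0.119), parental replicate 3 (0.649, adjusted p = 0.0985) or Holoclone replicate 1 (0.591, adjusted p = 0.0876), and with a pseudocount of 0.1, either scaling, the compared groups alone or the replicate block within each line (adjusted p = 0.0528 to 0.122).

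Between the Panc89 clones *SERPINE2* was lower in Holoclone cells by -0.64 (SE 0.228, adjusted p = 0.0384), in libraries that did not overlap. The call was lost without Holoclone replicate 2 or 3 or Paraclone replicate 1 or 3, with differences of -0.708 to -0.541 and adjusted p = 0.0552 to 0.14, and also with a pseudocount of 0.1, no filter, the compared groups alone or either replicate block (adjusted p = 0.056 to 0.0803). In Panc1, Holoclone cells read 2.41, 2.87 and 2.30 TPM and Paraclone cells 1.77, 1.42 and 2.63 TPM, which overlapped (0.28, adjusted p = 0.373). Panc1 Holoclone cells exceeded parental cells by 0.86 (SE 0.228, adjusted p = 0.0232), and this was the only member called between them, where 10.9% of all genes passed. That call was lost without parental replicate 2 (0.736, adjusted p = 0.0941) or without Holoclone replicate 1, 2 or 3 (0.792 to 0.906, adjusted p = 0.0554 to 0.0756), and with the replicate block within each line (adjusted p = 0.0584). *SERPINH1*, with 0.50 in the same contrast (adjusted p = 0.0688), passed without Panc1 Holoclone replicate 2 (0.619, adjusted p = 0.0408). For *SERPINE2*, the difference between the lines in the change between the clones was -0.92 (SE 0.323, adjusted p = 0.0365). This *SERPINE2* call was lost in 8 of the 12 fits that left out 1 library, and with no filter, either scaling or either replicate block.

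*SERPINB2* shares 19% of its 31-base stretches with another protein-coding gene model on the same strand in GENCODE 44, which had no symbol to be read by in the table, so how reads were divided between them is uncertain. It was listed at 0 in 8 of the 9 Panc1 libraries and at 0.0151 TPM in the other, a Holoclone library. Parental Panc89 cells read 2.63, 3.21 and 2.10 TPM, Holoclone cells 32.8, 13.9 and 13 TPM, and Paraclone cells 13.7, 5.94 and 7.38 TPM. Both clones lay above all parental libraries, and the clones overlapped each other. Holoclone cells exceeded parental cells by 2.41 (SE 0.292, adjusted p = 2e-05) and Paraclone cells by 1.39 (SE 0.292, adjusted p = 0.00294) on the log2 scale, and both calls held under every alternative. Holoclone exceeded Paraclone cells by 1.01 (SE 0.292, adjusted p = 0.0129), which was lost without Holoclone replicate 1 (0.605, adjusted p = 0.0549), Paraclone replicate 2 (0.787, adjusted p = 0.0535) or Paraclone replicate 3 (0.923, adjusted p = 0.0521), and with the compared groups fitted alone (adjusted p = 0.171). The change between the clones did not differ past the threshold between the lines (1.01, SE 0.412, adjusted p = 0.0709), but it did without Panc89 Holoclone replicate 3 (1.23, adjusted p = 0.0339) or Panc89 Paraclone replicate 1 (1.32, adjusted p = 0.0146) and with the replicate block within each line (adjusted p = 0.0345).

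*SERPINB3* showed the largest change between the clones among the members. It was listed at 0 in all 9 Panc1 libraries. Parental Panc89 cells read 34.1, 41.6 and 34.9 TPM, Holoclone cells 5.04, 2.09 and 1.30 TPM, and Paraclone cells 197, 141 and 194 TPM. The 3 groups were far apart, with parental cells between the clones. Holoclone cells were lower than Paraclone cells by -5.66 on the log2 scale (SE 0.248, adjusted p = 2.2e-10), a 63.3-fold difference of the mean TPM. Against parental cells the difference was -3.43 in Holoclone (SE 0.248, adjusted p = 1.04e-07) and 2.23 in Paraclone cells (SE 0.248, adjusted p = 1.46e-05). All 3 calls held under every alternative tried.

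*SERPINB4*, the neighboring gene and closest relative of *SERPINB3*, is not one of the 9 genes but bears on these values, because 40.5% of the 31-base stretches of *SERPINB3* transcripts in GENCODE 44 also occur in *SERPINB4* transcripts. How reads were divided between them is therefore uncertain. *SERPINB4* was also listed at 0 in all 9 Panc1 libraries, and in Panc89 it read 5.003, 5.25 and 5.20 TPM in parental, 0.974, 0.472 and 0.272 TPM in Holoclone and 6.73, 14.3 and 8.13 TPM in Paraclone cells. Its log2 difference between Holoclone and Paraclone cells was -2.73 (SE 0.202, adjusted p = 6.46e-08). *SERPINB3* held 87.7% ± 0.971 of the summed TPM in parental, 82.7% ± 1.13 in Holoclone and 94.5% ± 3.20 in Paraclone cells. With both genes summed and fitted as 1 gene, the difference between Holoclone and Paraclone cells was -5.55 (SE 0.249, adjusted p = 2.73e-10).

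The 250 bases before the starts of this gene pair are shown because they are nearly the same and the reads of the genes cannot be fully separated. The *SERPINB3* window is chr18:63661894-63662143 and the *SERPINB4* window chr18:63644257-63644506, both on the minus strand (RefSeq, GRCh38.p14). Capitals mark the 3 positions at which they differ.
SERPINB3: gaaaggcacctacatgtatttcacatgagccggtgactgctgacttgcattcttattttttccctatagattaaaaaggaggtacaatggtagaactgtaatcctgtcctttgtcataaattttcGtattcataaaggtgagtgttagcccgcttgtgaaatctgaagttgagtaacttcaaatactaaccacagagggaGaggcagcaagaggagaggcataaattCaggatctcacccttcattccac
SERPINB4: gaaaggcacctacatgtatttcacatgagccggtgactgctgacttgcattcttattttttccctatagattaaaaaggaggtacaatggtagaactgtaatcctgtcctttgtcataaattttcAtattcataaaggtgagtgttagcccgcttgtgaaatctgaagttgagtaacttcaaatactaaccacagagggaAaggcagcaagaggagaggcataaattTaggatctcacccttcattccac
Over the 300 bases that reach past the start, 296 positions (98.7%) were identical. Neither window held TGANTCA or GGGCGG.

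*SERPINB5* was at or near 0 in Panc1 and clearly read in Panc89. In Panc1 it was listed at 0 in all 3 Holoclone libraries and in 2 parental libraries, with 0.0476 TPM in the other, and at 0.509, 0.511 and 0.125 TPM in Paraclone cells. In Panc89 it read 17.2, 24.0 and 17.9 TPM in parental, 54.3, 44.6 and 51.8 TPM in Holoclone and 37.9, 35.5 and 30.9 TPM in Paraclone cells. The 3 Panc89 groups did not overlap, with both clones above parental cells. Holoclone cells exceeded parental cells by 1.32 (SE 0.151, adjusted p = 1.15e-05), Paraclone cells exceeded them by 0.80 (SE 0.151, adjusted p = 0.00138), and Holoclone exceeded Paraclone cells by 0.52 (SE 0.151, adjusted p = 0.0139). The last difference was 0.438 (adjusted p = 0.0689) without Paraclone replicate 3 and 0.382 (adjusted p = 0.0668) with median-of-ratios scaling. With a pseudocount of 0.1 it was 0.529 (adjusted p = 0.21), and the excess of Paraclone over parental cells was 0.828 (adjusted p = 0.0792), so both calls were lost.

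In Panc1 the direction for *SERPINB5* was the opposite one, with Paraclone cells above Holoclone cells (adjusted p = 0.027) and above parental cells (adjusted p = 0.0439), at levels that stayed under 1 TPM in every library. Each of these calls was lost in 5 of the 6 fits that left out 1 library (adjusted p = 0.0576 to 0.111 and 0.076 to 0.162), the exception for both being the fit without Paraclone replicate 3. The first was also lost with the replicate block within each line (adjusted p = 0.0568), and the second with no filter, the compared groups alone or either replicate block (adjusted p = 0.0511 to 0.0848). The change between the clones differed between the lines by 0.97 (SE 0.214, adjusted p = 0.00234), a call kept under every alternative. *SERPINB5* and *PLAUR* were the 2 members called between Panc1 Paraclone and parental cells, where 28.6% of all genes passed. *SERPINE2* gave 0.58 there (adjusted p = 0.0707) and passed with a pseudocount of 0.1 (adjusted p = 0.0191) or either scaling (adjusted p = 0.0459 and 0.0404).

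*SERPINB7* stayed at or under 0.0776 TPM in every Panc1 library. In Panc89 it read 1.73, 0.531 and 1.76 TPM in parental, 4.12, 1.5 and 0.961 TPM in Holoclone and 6.08, 4.18 and 5.47 TPM in Paraclone cells. Paraclone cells lay above both other groups, which overlapped each other, and Holoclone replicate 1 came close to the lowest Paraclone library. Holoclone cells were lower than Paraclone cells by -1.08 (SE 0.283, adjusted p = 0.00735), a call lost with the compared groups fitted alone (adjusted p = 0.104), and Paraclone cells exceeded parental cells by 1.45 (SE 0.283, adjusted p = 0.00174). The difference between the lines in the change between the clones was -1.10 (SE 0.4, adjusted p = 0.0446) and was lost in 10 of the 12 fits that left out 1 library, and with a pseudocount of 0.1, no filter or the compared groups alone.

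The 4 members of the SERPINB family lie together on chromosome 18 (GRCh38, GENCODE 44): *SERPINB5* at chr18:63476958-63505085, *SERPINB3* at chr18:63655197-63661893, *SERPINB7* at chr18:63752935-63805376 and *SERPINB2* at chr18:63871692-63903888. The cluster holds 10 SERPINB genes over 543 kb. In Panc1, 9 of the 10 were under 1 TPM in every library, the exception being *SERPINB8* at an end of the cluster. In Panc89, 7 of the 10 reached 1 TPM in at least 1 library. Among all 40266 symbols, 12932 to 14199 reached 1 TPM in a given library, so a level under 1 TPM is common. The second SERPINB cluster, with 3 genes over 140 kb on chromosome 6, had no gene under 1 TPM in every Panc1 library.

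Within Panc89 the genes of the chromosome 18 cluster did not move as a block. *SERPINB3* and *SERPINB4* were highest in Paraclone cells, whereas *SERPINB5*, *SERPINB2* and *SERPINB13* had their highest mean in Holoclone cells. *SERPINB13*, which lies between *SERPINB5* and *SERPINB4*, had means of 1.92 TPM in parental, 6.60 TPM in Holoclone and 0.0642 TPM in Paraclone cells (log2 difference of Holoclone against Paraclone cells 2.63, SE 0.297, adjusted p = 6.14e-06). It was singled out after its values were seen. *SERPINB8* had means in Panc1 of 5.96 TPM in parental, 10.9 TPM in Holoclone and 4.13 TPM in Paraclone cells, and in Panc89 of 6.71, 13.3 and 17.5 TPM in the same order.

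**Figure D4:**
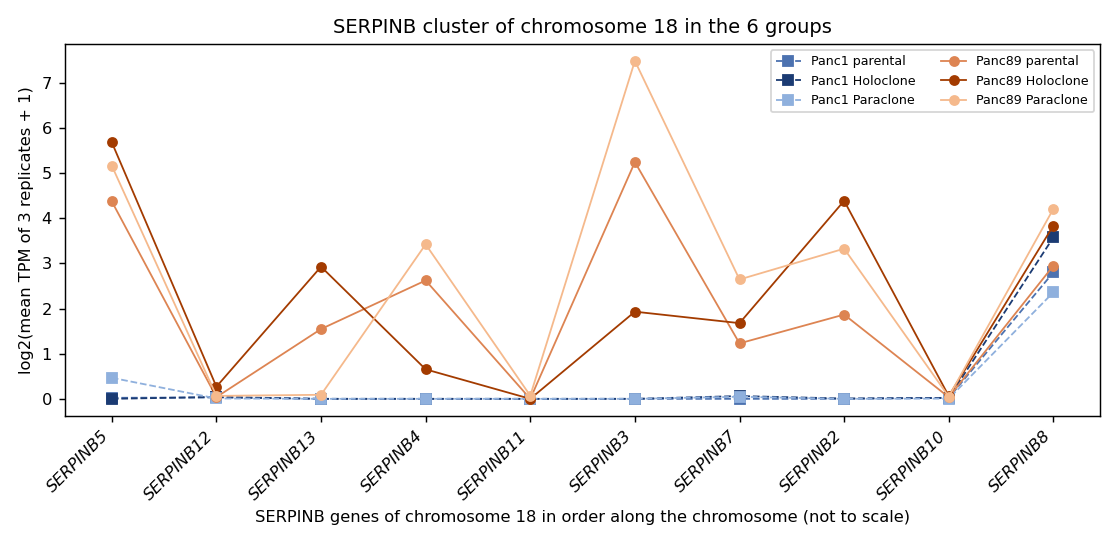
Mean level of 3 libraries on the log2(TPM + 1) scale (y axis) for the 10 SERPINB genes of the chromosome 18 cluster in their order along the chromosome (x axis, not to scale), with 1 line for each group; squares and dashed lines are Panc1 and circles and solid lines Panc89. Only *SERPINB8*, at the right end, rises above 1 TPM in Panc1, and in Panc89 the Paraclone line is highest at *SERPINB3* and the Holoclone line at *SERPINB5*, *SERPINB13* and *SERPINB2*.

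The windows before the starts of *SERPINB2* (chr18:63887455-63887704), *SERPINB5* (chr18:63476708-63476957) and the second of 3 starts of *SERPINB7* (chr18:63775168-63775417), all on the plus strand, are shown because each held TGANTCA, in capitals below together with GGGCGG, as did the *PLAUR* window above. The matches lie at position -102 in *SERPINB2*, at -146 in *SERPINB5* and at -154 and -39 in *SERPINB7*, and the *SERPINB5* window also held 2 overlapping GGGCGG matches at -77 and -72.
SERPINB2: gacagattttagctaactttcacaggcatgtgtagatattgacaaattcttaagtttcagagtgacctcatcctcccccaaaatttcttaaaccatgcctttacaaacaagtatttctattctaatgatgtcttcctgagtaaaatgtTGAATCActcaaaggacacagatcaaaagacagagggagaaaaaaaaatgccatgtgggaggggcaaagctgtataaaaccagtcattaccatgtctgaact
SERPINB5: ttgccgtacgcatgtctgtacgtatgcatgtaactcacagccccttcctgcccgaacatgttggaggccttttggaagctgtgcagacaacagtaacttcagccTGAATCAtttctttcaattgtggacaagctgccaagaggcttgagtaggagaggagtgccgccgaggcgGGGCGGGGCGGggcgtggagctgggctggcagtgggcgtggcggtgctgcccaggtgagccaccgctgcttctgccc
SERPINB7: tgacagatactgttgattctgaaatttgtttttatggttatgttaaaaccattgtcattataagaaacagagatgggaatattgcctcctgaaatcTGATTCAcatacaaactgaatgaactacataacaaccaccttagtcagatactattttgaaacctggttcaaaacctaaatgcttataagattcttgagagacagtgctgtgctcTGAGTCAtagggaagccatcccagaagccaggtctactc
Of the 8 members with a window in the table, 4 held TGANTCA in at least 1 of their windows. Counted by window this was 5 of 13, against 7.73% of all windows, and no share by gene was computed. *PLAU*, *SERPINE2*, *SERPINB5* and *SERPINH1* held GGGCGG (5 of 13 windows), against 44.9% of all windows. Members with several starts have several windows, which can overlap, so windows were not counted as independent, and the shares were not tested.

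*SERPINH1* was the most evenly expressed member and the only one at 87.6 TPM or more in all 18 libraries. Parental cells read 127, 98.2 and 125 TPM in Panc1 and 296, 333 and 293 TPM in Panc89, a 2.63-fold difference of the means (log2 difference 1.40, SE 0.166, adjusted p = 2.06e-06). In Panc1 it read 176, 139 and 182 TPM in Holoclone and 87.6, 102 and 111 TPM in Paraclone cells. These libraries did not overlap, and Holoclone cells exceeded Paraclone cells by 0.72 (SE 0.166, adjusted p = 0.00304), a call that held under every alternative. Against a median of all genes of 0.19 in this contrast, the difference was 0.442 or more under each alternative, other scalings included. In Panc89 it read 576, 386 and 364 TPM in Holoclone and 294, 344 and 306 TPM in Paraclone cells, which did not overlap either (0.46, SE 0.166, adjusted p = 0.0405). That call was lost without Holoclone replicate 1 (0.256, adjusted p = 0.195), Paraclone replicate 1 (0.414, adjusted p = 0.12) or Paraclone replicate 3 (0.444, adjusted p = 0.102). It was also lost with no filter, either scaling, the compared groups alone or either replicate block (0.323 to 0.462, adjusted p = 0.051 to 0.157).

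The clones and the parental cells of Panc89 differed for most members. Between Holoclone and parental cells 6 members passed the threshold, where 24.7% of all genes did: *PLAT*, *SERPINB2*, *SERPINB5*, *SERPINE2* and *SERPINH1* were higher and *SERPINB3* was lower in Holoclone cells. *SERPINH1* gave 0.49 there (SE 0.166, adjusted p = 0.0406), lost without Holoclone replicate 1 (0.287, adjusted p = 0.169) or without parental replicate 1, 2 or 3 (0.46 to 0.552, adjusted p = 0.0539 to 0.116), and with no filter, either scaling, the compared groups alone or either replicate block (0.386 to 0.493, adjusted p = 0.0536 to 0.126). Between Paraclone and parental cells 8 members passed, where 19.4% of all genes did: *PLAUR*, *SERPINB2*, *SERPINB3*, *SERPINB5*, *SERPINB7* and *SERPINE2* were higher and *PLAT* and *PLAU* lower in Paraclone cells. For *SERPINB2*, *SERPINB5* and *SERPINE2* both clones were called above the parental cells that these contrasts share, with the losses of single calls given above for *SERPINB5* and *SERPINE2*, so in this fit for these genes the parental level did not lie between those of the clones.

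The line difference was present in each cell variant. Between the Holoclone cells of the lines, where 65.8% of all genes passed, and between the Paraclone cells, where 60.7% did, all 9 members passed the threshold, again with only *PLAU* lower in Panc89. The filter itself favored a higher level in Panc89 for the 5 members that passed it only through Panc89 libraries, so their calls are not independent of it. The log2 difference of *PLAU* was -6.73 between Holoclone and -7.37 between Paraclone cells (both SE 0.326, adjusted p = 5.03e-11 and 1.77e-11). For *PLAT* it was 4.67 between Holoclone and 1.42 between Paraclone cells (both SE 0.355, adjusted p = 1.19e-08 and 0.00265), for *PLAUR* 3.56 and 2.79, for *SERPINE2* 3.49 and 4.42, and for *SERPINH1* 1.39 and 1.64. The calls of all 9 members in the 3 comparisons between lines held under every alternative.

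Other genes of plasminogen activation were taken from a list of 24 receptors, binding partners and regulators. *PLG*, plasminogen itself, was at or under 0.183 TPM in every library. Of the 17 listed genes that passed the filter, 3 were higher and 9 lower in parental Panc89 than in parental Panc1 cells. The median log2 difference was -0.857, against -0.181 over all genes, of which 66% passed. The largest differences were those of *ST14*, the membrane protease matriptase, which can activate urokinase (137 against 0.530 TPM, log2 difference 6.50, SE 0.19, adjusted p = 1.2e-13), and of *MRC2*, an endocytic receptor that takes up collagen and associates with the urokinase receptor (1.76 against 68.7 TPM, -4.68, SE 0.305, adjusted p = 1.92e-09). Between Holoclone and Paraclone cells, 1 was higher and 7 were lower in Panc1 (median -0.155, against 0.191 over all genes, of which 37.3% passed). In Panc89, 4 were higher and 5 lower (median 0.0239, against 0.0923 over all genes, of which 35.7% passed). The last median became -0.0808 after upper quartile and -0.11 after median-of-ratios scaling. With either scaling, 4 were higher and 8 lower in parental Panc89 than in parental Panc1 cells. The split between the clones became 1 higher and 8 lower in Panc1 and 3 higher and 5 lower in Panc89.

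*ITGA5*, an integrin chain of the fibronectin receptor, had the largest such difference in Panc1, with 43.1 TPM in Holoclone and 212 TPM in Paraclone cells (-2.25, SE 0.181, adjusted p = 1.58e-07), followed by *ITGA3* (-1.78, SE 0.166, adjusted p = 7.35e-07). In Panc89, *VLDLR*, a receptor that clears complexes of proteases and serpins, was higher in Holoclone cells (11.8 against 3.05 TPM, 1.67, SE 0.236, adjusted p = 5.31e-05) and *ITGA5* was lower (36.6 against 114 TPM, -1.59, SE 0.181, adjusted p = 6.57e-06).

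Of 29 further serpins, 12 passed the filter. Of these 7 were higher and 3 lower in parental Panc89 than in parental Panc1 cells (median 0.721, against -0.181 over all genes, of which 66% passed). Between Holoclone and Paraclone cells, 2 were higher and 2 lower in Panc1 (median 0.0879, against 0.191 over all genes, of which 37.3% passed), which became 1 higher and 3 lower after median-of-ratios scaling. In Panc89, 4 were higher and 3 lower (median 0.207, against 0.0923 over all genes, of which 35.7% passed). With either scaling the Panc89 split became 3 and 3, and the split between the parental lines 7 higher and 2 lower. With upper quartile scaling the Panc1 split became 2 higher and 3 lower. *SERPINB1*, an inhibitor of neutrophil proteases, had means of 43.3 TPM in parental Panc1 and 973 TPM in parental Panc89 cells (4.46, SE 0.255, adjusted p = 3.94e-10), and of 300.3 TPM in Holoclone and 2627 TPM in Paraclone cells of Panc89 (-3.04, SE 0.255, adjusted p = 2.5e-07). *SERPINF1*, which encodes pigment epithelium-derived factor, was higher in Panc89 Holoclone cells (13 against 0.595 TPM, 3.14, SE 0.399, adjusted p = 1.88e-05). In Panc1, *SERPINA3*, an acute-phase inhibitor of cathepsin G, was lower in Holoclone cells (5.05 against 93.3 TPM, -3.84, SE 0.388, adjusted p = 1.78e-06), and it was also lower in parental Panc89 than in parental Panc1 cells (0.901 against 16.7 TPM, -3.10, SE 0.388, adjusted p = 3.65e-06). *SERPINB8* was higher in Panc1 Holoclone cells (10.9 against 4.13 TPM, 1.19, SE 0.343, adjusted p = 0.0124).

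The partners of *SERPINH1* in collagen folding and processing mostly lay on the other side in Panc1. Of 21 such genes that passed the filter, 4 were higher and 12 lower in Panc1 Holoclone than Paraclone cells, where *SERPINH1* was higher. Their median was -0.436, against 0.191 over all genes, of which 37.3% passed. After upper quartile or median-of-ratios scaling 3 were higher and 14 lower. The lysyl hydroxylases *PLOD1* (55.0 against 219 TPM, -1.98, SE 0.257, adjusted p = 2.32e-05) and *PLOD2* (74.2 against 240 TPM, -1.69, SE 0.345, adjusted p = 0.00117) were among those lower. In Panc89, 6 were higher and 3 lower (median 0.0327, against 0.0923 over all genes, of which 35.7% passed). This Panc89 split became 6 and 5 with a median of -0.0446 after median-of-ratios scaling. There the prolyl hydroxylase gene *P4HA2* fell by 1.21 (SE 0.237, adjusted p = 0.000918) and the procollagen protease gene *BMP1* by 0.89 (SE 0.176, adjusted p = 0.000963). Between the parental lines, 5 were higher and 11 lower in Panc89 (median -0.594, against -0.181 over all genes, of which 66% passed). This parental split became 5 and 10 after upper quartile and 6 and 10 after median-of-ratios scaling. On the higher side were *LOX*, which cross-links collagen (3.72, SE 0.262, adjusted p = 4.88e-09), and *BMP1* (2.89, SE 0.176, adjusted p = 8.39e-10).

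Of 9 proteases that the member serpins are known to bind or restrain, 4 passed the filter, and 2 were higher and 1 lower in parental Panc89 than in parental Panc1 cells (median 0.72, against -0.181 over all genes). *PRSS8*, the membrane protease prostasin that *SERPINE2* inhibits, had means of 0.0294 TPM in parental Panc1 and 82.5 TPM in parental Panc89 cells (6.34, SE 0.153, adjusted p = 1.54e-14) and was higher in Panc89 Holoclone than Paraclone cells (133 against 85.7 TPM, 0.65, SE 0.153, adjusted p = 0.00367). *CTSL*, the cysteine cathepsin that *SERPINB3* inhibits, had means of 49.2 and 117 TPM in the parental lines (1.19, SE 0.276, adjusted p = 0.00132). Between the clones, 1 protease was lower in Panc1 Holoclone cells (median -0.16, against 0.191 over all genes), and 2 were higher and 1 lower in Panc89 Holoclone cells (median 0.00178, against 0.0923 over all genes). The shares of all genes that passed were 66%, 37.3% and 35.7% in these 3 comparisons. With median-of-ratios scaling the last split became 1 higher and 2 lower (median -0.137), and the only protease lower in parental Panc89 no longer passed. With upper quartile scaling the split between the Panc89 clones became 1 higher and 1 lower.

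The genes whose levels lay closest to each member over the 18 libraries were found by the root mean square difference of their log2 values after centering, a distance that the separation of the lines dominates. The smallest distances were those of *SPATA2L* (0.207) and *KBTBD11* (0.217) to *SERPINH1*, which varied least itself (SD 0.803), and of *ICAM2* (0.246) and *ABHD12B* (0.308) to *SERPINB5* (SD 2.49). *PLAU* had *VWA1* (0.522) and *TUBA1A* (0.543) nearest, *PLAUR* had *SRPX2* (0.415) and *ETHE1* (0.45), and *PLAT* had *LINC01088* (0.347) and *HCAR2* (0.364). *SERPINE2* had *GPR153* (0.371) and *CASC8* (0.378) nearest, *SERPINB2* had *AADACP1* (0.37) and *PTAFR* (0.45), and *SERPINB7* had *ADAMTS20* (0.32) and *YOD1* (0.325). *SERPINB3* had no gene nearer than *APCDD1L-DT* (0.644) and *SLC6A14* (0.671), the largest distances among the 9 members. These distances are descriptions over libraries that share their group and line, and no test was run on them.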

How the data were processed

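RNA from 3 passages of each cell variant was sequenced by the authors as stranded mRNA libraries and quantified with kallisto 0.46.1 against Ensembl release 106 (GRCh38), then imported with tximport as scaled TPM. The deposited table holds 1 log2 value of TPM + 1 for each of 40266 gene symbols and 18 libraries, with 10923 symbols at 0 throughout, and it was raised back to TPM where TPM are given. TPM summed to 985339 to 988066 in a library and keep no read total, so the depth and the counting error are unknown. No counts were used, so the DESeq2 test of the authors could not be repeated. Replicates of a group correlated at r = 0.954 to 0.992 over the genes tested, and 12932 to 14199 genes reached 1 TPM.

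The deposited log2 values were fitted by limma-trend (R 4.3.3, limma 3.58.1) with a mean for each of 6 groups, all 18 libraries sharing the residual spread, and two-sided p-values adjusted over 16093 genes by Benjamini-Hochberg. The script was tested on simulated data. The 9 genes and the lists were chosen with earlier results of these data known. Listed genes are named by the rule of the 2 largest changes past the threshold for each list and each of 3 comparisons, among those with a mean of at least 10 TPM in a group, and *SERPINB4* is named throughout. 1 gene was taken out of the lists after the fits and is not reported here. Same-numbered replicates of a line did not deviate together (r -0.318 to 0.19 over 18 pairs), so replicate numbers were not used as pairs. Alternatives were a pseudocount of 0.1, no filter and a filter of 5 TPM, upper quartile and median-of-ratios scaling, fits of the compared groups alone, replicate blocks, the sum of *SERPINB3* and *SERPINB4*, and leaving out each library. Of 6 genes that overlap a member in GENCODE 44, 4 were in the table and stayed at or under 1.16 TPM, the highest being the antisense *C10orf55* at *PLAU*, and the other 2, at *SERPINB2* and *SERPINB5*, have no symbol there and were not measured. Loci are from GENCODE 44 and promoter windows from RefSeq.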

Additional observations from a re-analysis of the deposited data

Results flagged for a closer look

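The change between Holoclone and Paraclone cells differed between the lines for 5 members, tested as the difference of the Panc89 and the Panc1 change in limma on the log2(TPM + 1) scale. It was 3.25 for *PLAT*, which was under 1 TPM in all Panc1 libraries, so the difference is close to the Panc89 change itself. It was -5.66 for *SERPINB3*, which was listed at 0 in every Panc1 library, and -1.10 for *SERPINB7*, which was under 0.1 TPM in every Panc1 library. For *SERPINB5* it was 0.97, with the Paraclone libraries the higher ones in Panc1 and the Holoclone libraries the higher ones in Panc89. *SERPINB5* was at most 0.511 TPM in any Panc1 library, and its calls between the clones of each line were lost under some alternatives. For *SERPINE2* the difference between the lines was -0.92. The values for *PLAT*, *SERPINB3* and *SERPINB5* passed the threshold under all 21 alternatives, and those for *SERPINB7* and *SERPINE2* under 7 of 20 and 8 of 21.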

How the results depend on the processing

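Of 80 member-by-comparison results, 53 kept their direction and side of the threshold under every alternative, among them all calls between the lines. The number of members passing fell from 5 to 3 for the difference between the lines and from 2 to 1 for Panc1 Paraclone against parental cells without a filter, where more genes share the adjustment. With the compared groups fitted alone, it was 4 for Panc89 Holoclone against Paraclone, 3 for Panc89 Holoclone against parental and 1 for Panc1 Paraclone against parental cells. With a replicate block over both lines it was 1 for Panc1 Paraclone against parental cells. With the replicate block within each line it was again 1 there and 0 for Panc1 Holoclone against parental cells, where limma gave 3 members at an unadjusted p under 0.05. The numbers share no pairing, and the blocks are given for completeness.

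Leaving out 1 library, the counts were 9 to 9 in the 3 comparisons between lines, 2 to 3 for Panc1 and 4 to 7 for Panc89 Holoclone against Paraclone cells, 3 to 5 for the difference between the lines, 0 to 1 (at least 2 at an unadjusted p under 0.05) for Panc1 Holoclone and 1 to 2 for Panc1 Paraclone against parental cells, and 3 to 6 for Panc89 Holoclone and 7 to 8 for Panc89 Paraclone against parental cells. Each such fit has fewer libraries, and the cause of single lost calls was not tested. The libraries giving the lowest counts were Panc89 Paraclone replicate 3 (4) for Panc89 Holoclone against Paraclone cells, and Panc89 parental replicates 1 and 3 (3 each) for Panc89 Holoclone against parental cells.

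Directions changed only for differences that did not pass the threshold. *PLAUR* in Panc89 Holoclone against parental cells became -0.071 with upper quartile and -0.068 with median-of-ratios scaling and ranged from -0.062 to 0.178 when 1 library was left out (-0.062, -0.043, -0.020 and -0.011 where it turned). *SERPINH1* became 0.012 with median-of-ratios scaling in Panc1 Paraclone against parental cells, and ranged from -0.034 to 0.0905 without 1 library in the same contrast of Panc89 (-0.0018 also turned). With 1 library left out, *PLAT* in Panc1 Holoclone cells ranged from -0.191 to 0.115 against parental (0.025 and 0.071 also turned) and from -0.263 to 0.043 against Paraclone cells. *PLAU* in Panc89 Holoclone against Paraclone cells ranged from -0.23 to 0.49 (-0.052 also turned), and *SERPINB7* in Panc89 Holoclone against parental cells from -0.030 to 0.662.

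The scalings moved the median log2 difference of all genes from -0.181 to -0.0444 or 0.019 between the parental lines and from 0.191 to 0.0068 or 0 between the Panc1 clones. Depth is unknown, so levels of 0 have no stated detection limit.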
